A study of Homo sapiens with 91 samples.

Results

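The genes described here are the 5 replication-dependent linker histone genes HIST1H1A, HIST1H1B, HIST1H1C, HIST1H1D and HIST1H1E, which are 5 of the 57820 gene identifiers counted. They were chosen by name, with earlier results of these data known, and found by Ensembl identifier. Their present symbols are H1-1 for HIST1H1A (ENSG00000124610.3), H1-5 for HIST1H1B (ENSG00000184357.3), H1-2 for HIST1H1C (ENSG00000187837.2), H1-3 for HIST1H1D (ENSG00000124575.5) and H1-4 for HIST1H1E (ENSG00000168298.4). RNA was counted in 48 libraries of a single HEK293T clone. HEK293T is an immortal human line that was derived from embryonic kidney. The labels give the clone no treatment, and per the growth protocol the culture medium was high-glucose DMEM with serum and antibiotics. Of these libraries 38 were each made from 1 cell. The other 10, called averaged aliquots below, were each made from a cell's worth of material taken after single cells had been pooled and split. An aliquot therefore carries the scatter of the method on an averaged RNA, and the design asks how far cells differ beyond that scatter.

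Linker histones bind the nucleosome where DNA enters and leaves it and help to fold chromatin. The genes studied here are transcribed mainly while DNA is replicated, as are the core histone genes among which they lie on chromosome 6. Their mRNAs have no introns and end in a conserved stem-loop, bound by the protein SLBP, in place of a poly(A) tail. MATQ-seq, the method of the series, primes total RNA along its length, so it can count RNAs without a poly(A) tail. Random barcodes put on the cDNA let molecules be counted before amplification.

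To show what the 5 genes share in sequence, the 130 bases before each start site are printed below as given by RefSeq for build GRCh38.p14, while the counts were made on hg19. All 5 genes matched the RefSeq promoter table by symbol. Each sequence runs 5′ to 3′ on the strand of its gene and ends at the base before the start site. Capitals mark AAACACA, the element known as the H1 box, the pentamer CCAAT, and the hexamers TATAAA or else TATATA, both called TATA words below.
HIST1H1A at chr6:26017788-26017917, minus strand: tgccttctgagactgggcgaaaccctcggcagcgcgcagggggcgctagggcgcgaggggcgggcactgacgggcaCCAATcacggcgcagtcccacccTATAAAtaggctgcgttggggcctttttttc
HIST1H1B at chr6:27867589-27867718, minus strand: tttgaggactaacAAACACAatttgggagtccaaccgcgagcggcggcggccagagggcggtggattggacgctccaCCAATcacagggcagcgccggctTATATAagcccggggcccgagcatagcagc
HIST1H1C at chr6:26056471-26056600, minus strand: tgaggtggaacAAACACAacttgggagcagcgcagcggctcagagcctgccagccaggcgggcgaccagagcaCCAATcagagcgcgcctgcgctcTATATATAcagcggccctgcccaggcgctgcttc
HIST1H1D at chr6:26234988-26235117, minus strand: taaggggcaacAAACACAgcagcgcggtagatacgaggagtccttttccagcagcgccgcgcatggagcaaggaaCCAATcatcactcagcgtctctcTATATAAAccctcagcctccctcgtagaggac
HIST1H1E at chr6:26156199-26156328, plus strand: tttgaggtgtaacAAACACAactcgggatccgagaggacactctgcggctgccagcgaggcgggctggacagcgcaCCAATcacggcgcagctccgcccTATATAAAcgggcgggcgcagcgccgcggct
The 4 promoters of HIST1H1B, HIST1H1C, HIST1H1D and HIST1H1E share 1 layout of these words. Their AAACACA began 117, 119, 119 and 117 bases before the start, their CCAAT 53, 57, 55 and 54 bases before it, and their first TATA word 30, 34, 32 and 31 bases before it. HIST1H1A held CCAAT 54 and TATAAA 31 bases before its start but no AAACACA on its own strand in the 250 bases searched. There its only AAACACA lay on the opposite strand, 183 bases before the start. HIST1H1B had another AAACACA 226 bases before its start, and HIST1H1C had another on the opposite strand at 242.

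Searched on both strands of the 250 bases before the start, AAACACA was found in 5 of 5 H1 promoters, in 0 of 29 core histone promoters and in 4.82% of all 35116 promoters of the same length. CCAAT was found in 5 of 5 H1 promoters, 26 of 29 core histone promoters and 32.01% of all promoters. A TATA word was found in 5 of 5, 22 of 29 and 12.8%. The pair of TATA words overlap each other in HIST1H1D and HIST1H1E, so they were counted as 1 word here. All 3 kinds of word on the strand of the gene were found together in 4 of 5 H1 promoters, in none of the 29 core histone promoters and in 42 of all promoters, or 0.12%. A match is a description of the letters and not a site of binding.

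Cells held between 128322 and 326476 exonic barcodes (median 217070) and aliquots between 152542 and 275215 (median 173966). Intronic barcodes made up 32.7% to 66.8% of a cell library and 54.9% to 60.4% of an aliquot library. The labels name neither cultures nor pools, so p-values measure the spread between these libraries, and the difference in mean between cells and aliquots is given without a test. Of 5 HEK293T markers, 4 were matched by identifier (IRS4, VIM, NEFM, PAX2), with a summed level of 296 to 1901 CPM (exonic barcodes per 1000000 of the library, with TMM library factors) in cells and 1109 to 1688 CPM in aliquots. The 7 markers of MCF10A, the other line of the series, summed to 0 to 57.1 CPM in cells and 0 to 23.8 in aliquots. Of these, KRT17 was at 0 in every library, while CDH3 had barcodes in 17 of 38 cells and 5 of 10 aliquots. PAX2 was found about as often, in 17 of 38 cells and 6 of 10 aliquots. Its mean in cells was 6.89 CPM, beside 4.79 CPM for CDH3. Most of the HEK293T sum came from IRS4, with a mean of 935 CPM in cells and 1146 CPM in aliquots.

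No intronic read or barcode was assigned to the 5 genes in any of the 48 libraries, against 10786 exonic barcodes, and each gene has 1 exon in GENCODE release 29. No annotated gene overlaps any of them. Of the 50-base windows of their transcripts (599 in HIST1H1A, 632 in HIST1H1B, 593 in HIST1H1C, 617 in HIST1H1D and 705 in HIST1H1E), 0 occurred in a transcript of any other gene. A read of that length or longer that matches one of these transcripts exactly therefore fits only 1 gene of that annotation. Reads with mismatches were not examined. Their nearest annotated neighbours are histone genes or histone pseudogenes on both sides, except that HIST1H1C lies next to HFE on 1 side. No source used here says whether reads were counted by strand.

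HIST1H1A and HIST1H1B were near the limit of detection in this clone. HIST1H1A encodes H1.1, a subtype known from few tissues such as thymus, testis and spleen. It had 4 barcodes in 3 of 38 cells and 5 barcodes in 3 of 10 aliquots. Pooled over the group this is 0.455 CPM in cells (exact Poisson 95% interval 0.124 to 1.17) and 2.63 CPM in aliquots (0.854 to 6.14). These intervals cover counting error only. The difference between the groups was not tested, and 3 of the 5 aliquot barcodes were in aliquot 6. The highest HIST1H1A values were 6.72 CPM in cell 11 and 15.8 CPM in aliquot 6.

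HIST1H1B encodes H1.5, a subtype of dividing cells. It had 5 barcodes in 4 of 38 cells and 1 barcode in 1 of 10 aliquots. The pooled level of HIST1H1B was 0.569 CPM in cells (0.185 to 1.33) and 0.526 CPM in aliquots (0.0133 to 2.93). A count of 0 over a whole group would allow up to 0.342 CPM in cells and 1.58 CPM in aliquots, taking 3 counts as the limit. Neither gene passed the filter of a mean of 10 CPM over the 48 libraries, so neither was tested. The 3 H1 genes that passed are HIST1H1C, HIST1H1D and HIST1H1E.

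**Figure D1:**
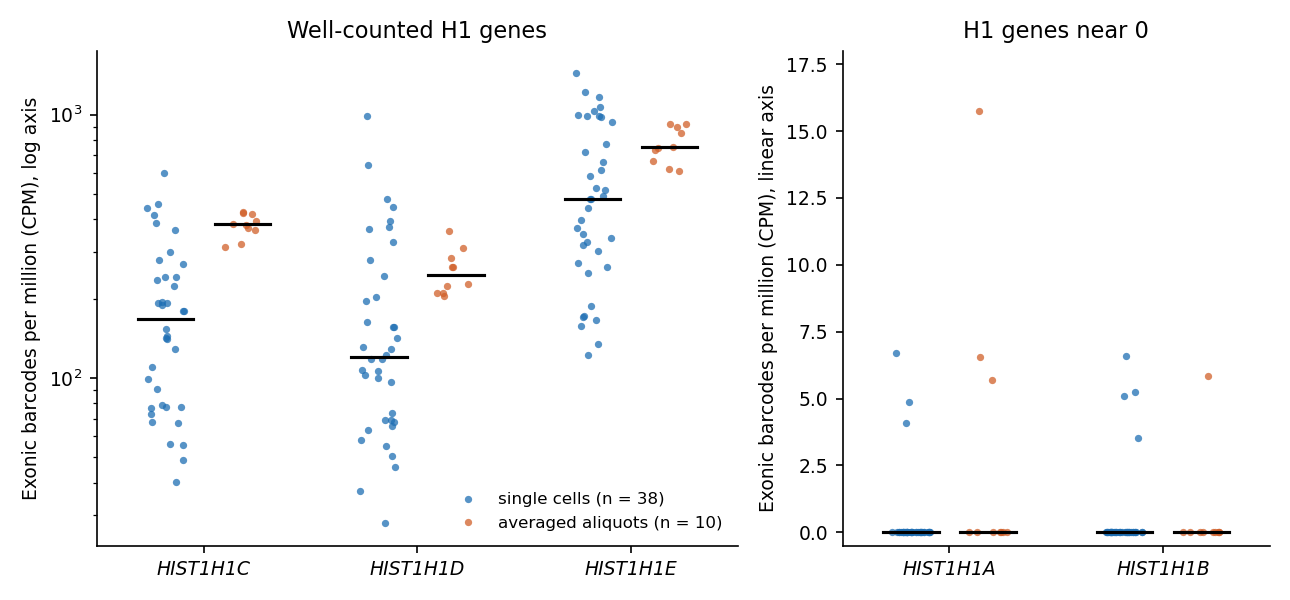
Level of each H1 gene in every library, in CPM of exonic barcodes, with 38 single cells in blue, 10 averaged aliquots in orange and the group median as a black bar (log axis on the left, linear axis on the right). HIST1H1C, HIST1H1D and HIST1H1E spread over a wide range in cells and a narrow one in aliquots, and most libraries are at 0 for HIST1H1A and HIST1H1B.

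HIST1H1E, which encodes H1.4, a subtype found in most somatic cells, was the most abundant of the 3. In the 38 cells it ranged from 122.3 CPM in cell 30 over a median of 477.7 to 1435 CPM in cell 16, an 11.7-fold range. In the 10 aliquots it ranged from 611 CPM in aliquot 2 over a median of 750.1 to 924 CPM in aliquot 6. The groups overlapped, with 24 cells below the lowest aliquot, 10 above the highest and 4 between. The mean level of HIST1H1E was 562.8 CPM ± 358.8 (SD, n = 38) in cells and 772.6 ± 119.3 (SD, n = 10) in aliquots. The counts behind these values were 29 to 306 barcodes in a cell (median 104.5) and 109 to 198 in an aliquot (median 145).

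HIST1H1C encodes H1.2, another subtype of most somatic cells. It ranged in cells from 40.3 CPM in cell 14 over a median of 166.6 to 601 CPM in cell 16, a 14.9-fold range. In aliquots it ranged only from 313 CPM in aliquot 2 over a median of 382 to 427 CPM in aliquot 9. Of the 38 cells, 32 lay below every aliquot, 3 above every aliquot and 3 between. The mean level of HIST1H1C was 192.4 CPM ± 134 (SD, n = 38) in cells and 379.6 ± 39.1 (SD, n = 10) in aliquots. Barcodes numbered 12 to 111 in a cell (median 31.5) and 57 to 98 in an aliquot (median 67.5).

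HIST1H1D, which encodes H1.3, had the widest range of the 3. In cells it went from 28.05 CPM in cell 33 over a median of 119.9 to 992 CPM in cell 5, a 35.4-fold range. In aliquots it went from 204.8 CPM in aliquot 6 over a median of 244.9 to 360.2 CPM in aliquot 4. Here 28 cells lay below every aliquot, 7 above and 3 between. The mean level of HIST1H1D was 194.2 CPM ± 195.7 (SD, n = 38) in cells and 255.8 ± 51.0 (SD, n = 10) in aliquots, from 9 to 189 barcodes in a cell (median 24.5) and 34 to 75 in an aliquot (median 44.5).

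The summed level of all 5 H1 genes ran from 217 CPM in cell 30 to 2613 CPM in cell 5, a 12.03-fold range. Its quartiles over cells were 477.6, 754.9 and 1417 CPM. It ran from 1135 CPM in aliquot 2 to 1676 CPM in aliquot 4, with a median of 1403. Of the cells, 26 were below every aliquot, 6 above every aliquot (cells 5, 16, 19, 10, 34 and 11) and 6 between. The aliquots' mean exceeded the cells' mean 1.49-fold for the sum, 1.97-fold for HIST1H1C, 1.32-fold for HIST1H1D and 1.37-fold for HIST1H1E. Of the 3 genes only HIST1H1C was at least 1.5-fold lower in cells, as were 3.8% of the 9992 genes tested. The median over all tested genes was a log2 ratio of cells over aliquots of 0.02, and the median of the 21 core histone genes tested was -0.71, beside -0.98 for HIST1H1C, -0.40 for HIST1H1D and -0.46 for HIST1H1E. An aliquot averages over cells, so the number of cells with H1 RNA and its level per cell cannot be told apart in it. Among the single cells, HIST1H1C, HIST1H1D and HIST1H1E each had barcodes in 38 of 38. CPM is relative to all exonic RNA of a library.

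Compared per kilobase of annotated transcript, the order of the mean levels was the same in both groups. HIST1H1E stood at 746 CPM per kb in cells and 1025 in aliquots, HIST1H1C at 299.7 and 591, and HIST1H1D at 291.5 and 384. HIST1H1E was above HIST1H1C and above HIST1H1D per kb in 38 of 38 cells and 10 of 10 aliquots. HIST1H1C was above HIST1H1D per kb in 10 of 10 aliquots but in only 28 of 38 cells. Taken within each library, the log2 ratio of HIST1H1C to HIST1H1D per kb averaged 0.23 ± 0.58 (SD, n = 38) in cells. In aliquots it averaged 0.64 ± 0.29 (SD, n = 10). The annotated lengths are 642 bases for HIST1H1C, 666 for HIST1H1D and 754 for HIST1H1E. The first 2 are multiples of 3, as coding lengths without UTRs would be, so levels per kb of these short models are approximate.

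The coefficient of variation (CV, the SD as a percentage of the mean) sets this spread beside what counting alone gives. For HIST1H1C it was 69.8% in cells against 15.4% from counting alone, and 10.3% in aliquots against 12.02% from counting. For HIST1H1D it was 100.8% in cells against 15.3% from counting, and 19.9% in aliquots against 14.6%. For HIST1H1E it was 63.8% in cells against 8.997%, and 15.4% in aliquots against 8.42%. Aliquots thus scattered about as counting alone gives for HIST1H1C and somewhat more for the other two, while cells scattered several times as much as counting gives for all 3. HIST1H1D depended most on 1 cell, since without cell 5 its CV in cells was 84.4%. Leaving out any 1 cell left the CV of HIST1H1C between 64.7% and 71.2% and that of HIST1H1E between 61.7% and 65.0%.

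Both tests of spread were fitted over the 9992 genes that passed the 10 CPM filter and adjusted over all of them by Benjamini-Hochberg. The first, with limma, compared the absolute deviations of log2 CPM from the group median. In that test the mean deviation in cells exceeded that in aliquots 7.10-fold for HIST1H1C (difference 0.72, SE 0.20), 3.94-fold for HIST1H1D (0.69, SE 0.23) and 4.42-fold for HIST1H1E (0.65, SE 0.20). None of the 3 passed after adjustment: the limma p was 0.000463 for HIST1H1C (adjusted 0.421), 0.003 for HIST1H1D (adjusted 0.502) and 0.0018 for HIST1H1E (adjusted 0.491). By that test 0% of all genes (0 of 9992) passed with a larger spread in cells, and 3.67% (367 genes) did so at an unadjusted p under 0.05. Among the 9992 genes, 2 had a larger ratio of deviations than HIST1H1C, 13 a larger one than HIST1H1E and 23 a larger one than HIST1H1D.

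The second test compared negative-binomial dispersions, the variance beyond counting on the scale of the squared CV, with a likelihood ratio on the counts. All 3 passed, where 0.23% of all tested genes (23 of 9992) did. The fitted dispersion of HIST1H1C was 0.421 in cells and 0.001 in aliquots (adjusted p = 0.00303), of which the latter is the lowest value the fit allowed. For HIST1H1D it was 0.697 in cells and 0.0147 in aliquots (adjusted p = 0.0229), and for HIST1H1E 0.421 and 0.0173 (adjusted p = 0.0287). The call of HIST1H1C held in all 7 other settings, in all 38 repeats without 1 cell and in all 10 without 1 aliquot, with adjusted p of at most 0.0296. The other two calls changed with the settings and with the aliquots used. Without a filter on low counts the adjusted p was 0.0741 for HIST1H1D and 0.0928 for HIST1H1E, and after thinning all libraries to 1 depth it was 0.0606 for HIST1H1D. HIST1H1D missed the threshold without aliquot 1, 5, 6, 7, 8, 9 or 10 (adjusted p up to 0.0815) and HIST1H1E without any 1 aliquot except aliquot 2 (adjusted p up to 0.0815), while leaving out any 1 cell ended neither.

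**Figure D2:**
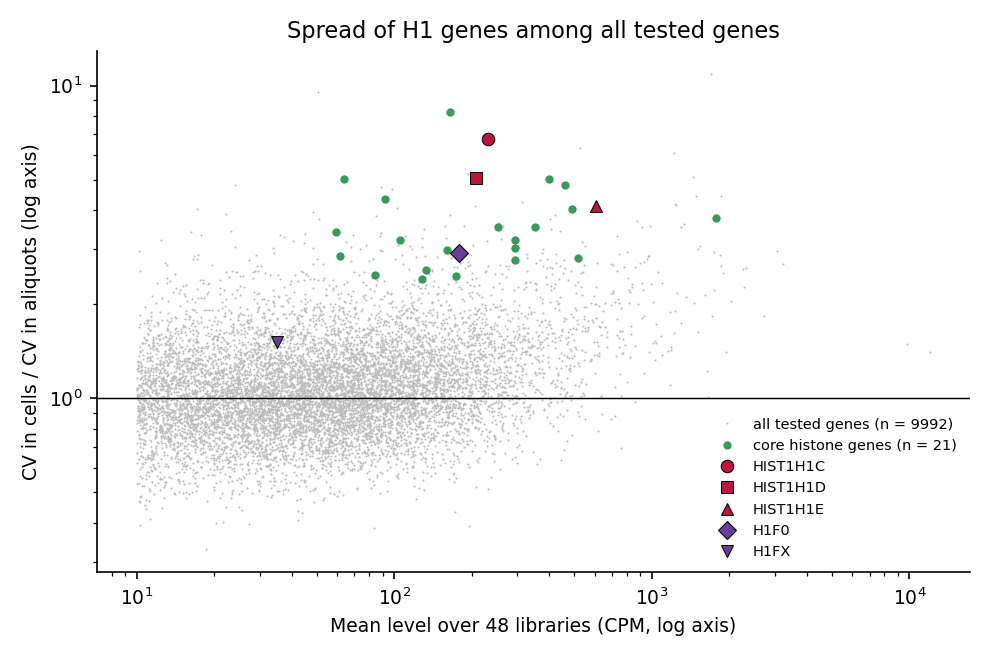
Ratio of the CV in cells to the CV in aliquots against the mean level over 48 libraries in CPM (both axes log), for the 9992 tested genes in grey, 21 core histone genes in green, HIST1H1C, HIST1H1D and HIST1H1E in red and H1F0 and H1FX in purple. The 3 H1 genes lie at ratios of 6.77, 5.06 and 4.13, with 3, 8 and 21 of all genes above them.

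The 3 genes were high and low in the same cells. Of the 10 cells with the highest level of each gene, 9 were shared by all 3 genes (cells 4, 5, 10, 11, 13, 16, 19, 20 and 34). Of the 10 lowest, 7 were shared (cells 14, 29, 30, 31, 32, 33 and 36). Over the 38 cells Spearman's rho was 0.944 between HIST1H1C and HIST1H1E, 0.857 between HIST1H1D and HIST1H1E and 0.852 between HIST1H1C and HIST1H1D. Over the 10 aliquots it was 0.103, 0.297 and -0.115. The points share a library, so a level in CPM carries the same depth and the same total in each pair.

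**Figure D3:**
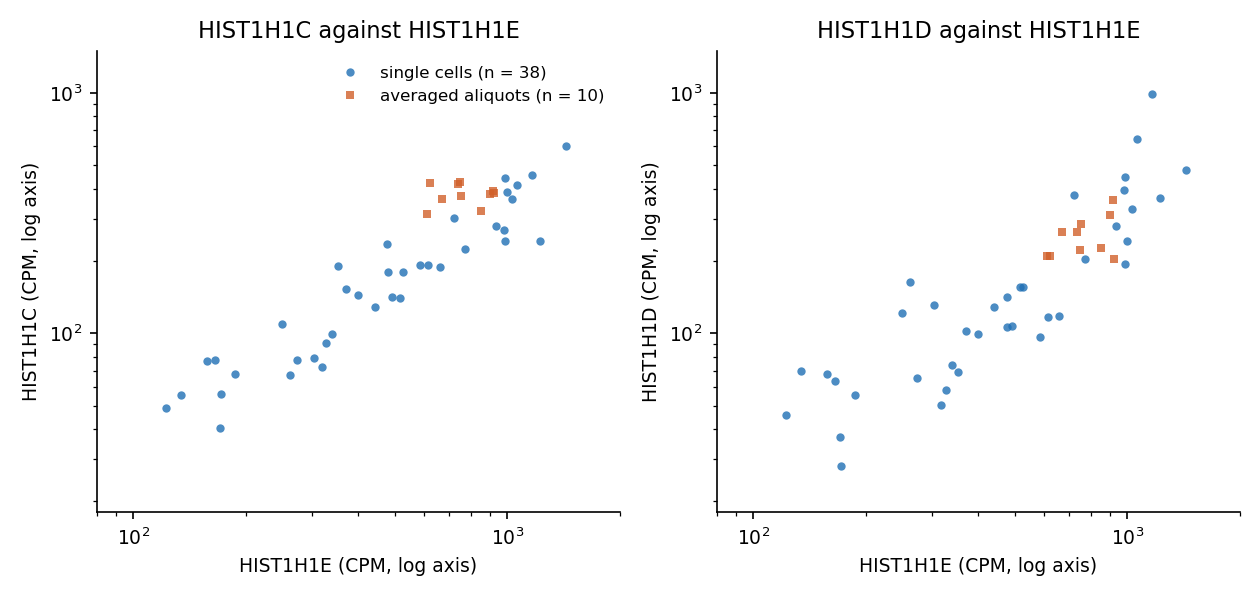
HIST1H1C (left) and HIST1H1D (right) against HIST1H1E in every library, in CPM on log axes, with 38 single cells in blue and 10 averaged aliquots in orange. Cells lie along a rising band (Spearman's rho 0.944 and 0.857), and in the left plot the aliquots lie at the upper edge of it or above it.

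Within a library the genes kept to each other to different degrees. The SD of the log2 ratio of HIST1H1C to HIST1H1E over cells was 0.35, where counting alone gives 0.32. HIST1H1D kept less closely to the others, with an SD of 0.60 for its log2 ratio to HIST1H1E (counting alone 0.34) and 0.58 for the log2 ratio of HIST1H1C to HIST1H1D (counting alone 0.41). In aliquots the SDs were 0.26 for HIST1H1C over HIST1H1E, 0.27 for HIST1H1D over HIST1H1E and 0.29 for HIST1H1C over HIST1H1D, where counting alone gives 0.21, 0.25 and 0.28. Per kb, the log2 ratio of HIST1H1D to HIST1H1E went from -2.48 in cell 17 to -0.05 in cell 5.

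Shares of the summed barcodes of the 5 H1 genes show the same in each library. HIST1H1D made up 18.9% ± 6.398 (SD, n = 38) of the barcodes in cells, where counting alone gives an SD of 3.44 percentage points, and 18.1% ± 2.47 (SD, n = 10) in aliquots, where counting gives 2.40. Its share was highest in cell 5, at 189 of 498 barcodes or 38.0% (exact binomial 95% interval 33.7% to 42.4%). Cell 7 had 46 of 139, or 33.1% (25.4% to 41.6%), and cell 19 had 134 of 441, or 30.4% (26.1% to 34.9%). The lowest share was in cell 33, with 9 of 82 barcodes or 10.98% (5.14% to 19.8%). Cells 5 and 19 are among the 8 cells with the highest summed level, and cell 7 is not. Over all 38 cells the share of HIST1H1D had a Spearman's rho of 0.188 with the summed level and -0.281 with the cell number in the labels, whose meaning the labels do not give.

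HIST1H1C made up a smaller share in cells, 20.6% ± 3.76 (SD, n = 38; counting 3.43), than in aliquots, 27.1% ± 3.39 (SD, n = 10; counting 2.76). In cells the share ran from 13.2% in cell 34 over a median of 20.9% to 31.3% in cell 15, and in aliquots from 23.1% over 26.98% to 33.5%. Of the 38 cells 29 were below every aliquot, 9 were within the aliquots' range and 0 were above it. HIST1H1E took 60.4% ± 6.53 (SD, n = 38; counting 4.199) in cells and 54.6% ± 3.73 (SD, n = 10; counting 3.10) in aliquots, with 20 cells above every aliquot, 1 below and 17 within. The HIST1H1D shares of 10 cells lay above every aliquot, those of 7 below and those of 21 within. Cells and aliquots thus differed in the make-up of the H1 RNA as counted, and since each group is 1 sample for a mean, no test of that difference is given.

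**Figure D4:**
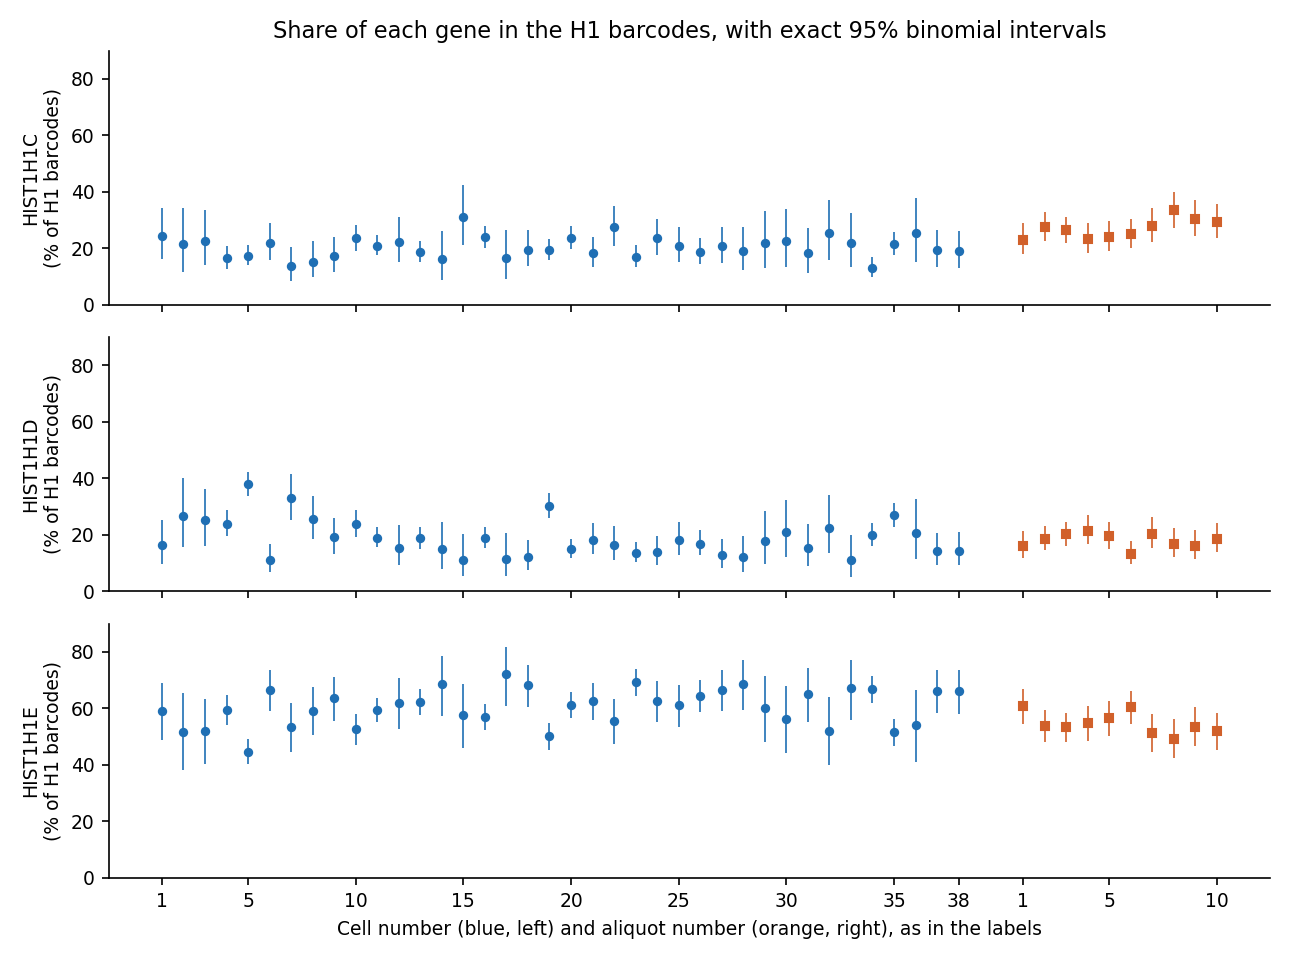
Share of HIST1H1C, HIST1H1D and HIST1H1E in the summed barcodes of the 5 H1 genes (percent), for each cell (blue circles) and each aliquot (orange squares). Libraries are placed by their number in the labels, with exact 95% binomial intervals as bars. HIST1H1D stands highest in cell 5 at 38.0%, and most cells lie below the aliquots for HIST1H1C.

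The H1 genes moved over cells with the core histone genes, which encode the H2A, H2B, H3 and H4 proteins of the nucleosome. Of 64 core histone symbols listed, 29 were matched by identifier and 21 were tested. A score of these 21, their mean z-score of log2 CPM, had a Spearman's rho of 0.963 and a Pearson's r of 0.964 with that of the 3 H1 genes over 38 cells, and 0.60 and 0.773 over 10 aliquots. The summed H1 level was 16.04% ± 2.90 (SD, n = 38) of the summed level of the 29 core genes in cells and 16.4% ± 2.01 (SD, n = 10) in aliquots. That ratio had a CV of 18.1% in cells, where the H1 sum had 68.9% and the core sum 59.1%. It was lowest in cell 15 at 10.99% and highest in cell 19 at 21.4%, and went from 13.4% to 19.1% in aliquots. Over cells the ratio itself had a Spearman's rho of 0.502 with the H1 sum.

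**Figure D5:**
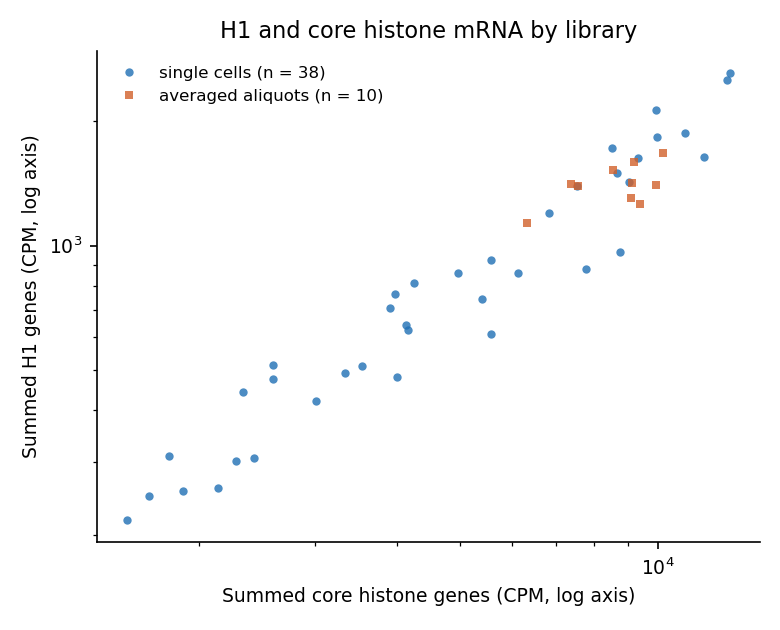
Summed level of the 5 H1 genes against the summed level of 29 core histone genes in every library, in CPM on log axes. The 38 single cells are in blue and the 10 averaged aliquots in orange. The cells lie along 1 rising band (Spearman's rho 0.967) and 26 of them have a lower H1 sum than every aliquot.

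All 21 core histone genes tested had a larger mean deviation in cells than in aliquots, as had 5488 of the 9992 genes. The median ratio of deviations was 3.12 over the core genes, 4.42 over the 3 H1 genes and 1.04 over all genes. The dispersion test called 6 of the 21 core genes and the deviation test none after adjustment, although all 21 had an unadjusted p under 0.05. Over all tested genes the dispersion test called 0.23% and 3.67% had such an unadjusted p with the larger spread in cells. By likeness to the 3 H1 genes over cells (Spearman's rho with their mean z-score), the highest core genes were HIST2H2AC at 0.953, an H2A gene on another chromosome, HIST1H2BK at 0.949, an H2B gene, and HIST1H3J at 0.941, an H3 gene. The 21 core genes ranged from 0.784 to 0.953 around a median of 0.905. Over all 9992 genes the median likeness was -0.0132, the 5th percentile -0.304 and the 95th percentile 0.294.

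Outside the core list the most alike were H2BFS at 0.916, an H2B gene whose sequence is close to other H2B genes so that reads may be shared, and H2AFX at 0.740, which encodes the variant H2A.X and makes mRNA of both the stem-loop and the polyadenylated kind. NUP210, a protein of the nuclear pore, followed at 0.600 and was the first gene outside the histones for each single H1 gene, at 0.578 for HIST1H1C, 0.636 for HIST1H1D and 0.559 for HIST1H1E. At the other end were SENP5, a SUMO protease, at -0.598, ROBO1, a guidance receptor, at -0.585 and SAMD4B, an RNA-binding protein, at -0.554. These come from the ends of 9992 values over 38 cells and are given as a description.

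Of 6 other linker histone genes, H1F0 and H1FX were tested, and both had lower likeness values than any of the 21 core genes. H1F0 encodes H1.0, which is known to accumulate in cells that have stopped dividing, from a polyadenylated mRNA. Its level was 171.5 CPM ± 129.7 (SD, n = 38) in cells and 205.0 ± 53.3 (SD, n = 10) in aliquots, and its likeness to the H1 genes was 0.442. Its mean deviation was 2.86 times as large in cells as in aliquots, with an adjusted p of 0.562 by limma and 0.20 by the dispersion test. H1FX, which encodes H1X, stood at 35.2 CPM ± 24.7 (SD, n = 38) and 33.6 ± 15.6 (SD, n = 10), with a likeness of 0.227, a ratio of deviations of 0.974 and adjusted p of 0.993 and 0.814. The germ-line linker histone genes were at or near 0, with 1 barcode of HIST1H1T in 1 cell, 1 of H1FNT in 1 cell, 3 of H1FOO in 3 cells, none of HILS1, and none of the 4 in aliquots.

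Genes that act on histone mRNAs or on H1 itself were set beside the H1 genes in the same way. Of 15 tested genes for the synthesis and processing of histone mRNA, 0 were called by the dispersion test and 0 by the deviation test, in which 0 had an unadjusted p under 0.05 too, and the median ratio of deviations was 1.16. Their likeness ran from -0.342 for SLBP, which binds the stem-loop, to 0.309 for NPAT, the coactivator of histone gene transcription, around a median of -0.108. Of 13 tested chaperones and modifiers of H1, 0 were called by either test after adjustment and 2 had an unadjusted deviation p under 0.05 with the larger spread in cells. Of all tested genes 0.23% were called by the dispersion test and 3.67% had such an unadjusted deviation p, so lists of 15 and 13 genes are too short for a count of 0 to differ from these shares. Their median ratio of deviations was 1.53, with likeness from -0.283 for NASP, a histone chaperone that binds H1, to 0.392 for HMGN2, a nucleosome-binding protein, around a median of 0.0951.

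Genes of the cell cycle phases were set beside the H1 level because H1 transcription is tied to S phase. The mean z-score of 41 G1/S genes had a Spearman's rho of 0.187 with that of the H1 genes over 38 cells, and that of 53 G2/M genes -0.11. The G1/S gene most like the H1 genes was EXO1, an exonuclease of DNA repair, at 0.477 and the least like was SLBP, which is on this list too. Among G2/M genes the ends were CBX5, a heterochromatin protein, at 0.413 and KIF20B, a mitotic kinesin, at -0.431. The HEK293T markers reached 0.137 for IRS4 and -0.0867 for NEFM.

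Measures of library quality were compared with the summed H1 level in the same way. Over the 38 cells Spearman's rho was -0.246 with the number of exonic barcodes, 0.0861 with the intronic percentage and -0.204 with the cell number. The 2 cells with the highest H1 sum, cells 5 and 16, held 191158 and 186337 exonic barcodes. The 2 with the lowest, cells 30 and 14, held 324317 and 319368. Next in order, the high cells 19, 10, 34, 11, 4 and 20 held 206194, 185573, 217636, 301740, 204779 and 282511. The next low cells 33, 2, 32, 36, 29 and 31 held 326476, 216504, 236806, 209809, 233935 and 242906. Over the 10 aliquots rho with the number of exonic barcodes was -0.515. Thinning all libraries to 128322 barcodes evens out their totals but leaves the expected CPM of a gene unchanged. It therefore cannot show the part of depth in these levels, which was not tested. On the thinned counts the dispersion test called HIST1H1C and HIST1H1E (adjusted p = 0.0296 for each) and gave HIST1H1D an adjusted p of 0.0606.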

How the data were processed

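Exonic barcode counts of 38 cells and 10 aliquots were analysed, 48 of 91 samples described, and the other 43 were not analysed here. Each deposited file holds 4 columns of counts (exonic and intronic reads and random barcodes) for 57820 Ensembl identifiers, and the authors did not normalize these counts. TopHat, HTSeq and hg19 are named per the submitters' processing notes, without versions, annotation or use of strand. Symbols came by identifier from a gene name table and GENCODE release 29 (52338 identifiers). The 35 core histone symbols not matched have other identifiers in that release.

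Groups and numbers came from the labels. CPM values use TMM factors of edgeR 4.0.16. The deviation test used limma 3.58.1 (R 4.3.3; prior count 1; robust, trended, two-sided). The dispersion test was a likelihood ratio on Cox-Reid adjusted likelihoods over 60 dispersions from 0.001 to 20, in Python 3.11.15 with numpy 2.4.6, scipy 1.17.1 and numba 0.67.0. Both were also run on simulated counts in which all genes had the same base dispersion, and the outcome is not given here. Calls are at an adjusted p of 0.05. No 2 libraries were duplicates, with a chi-square per degree of freedom of at least 2.07 between cells and 1.99 between aliquots. Intervals cover counting error only.

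The members and lists were chosen with earlier results of these data known. Named genes are the members, H1F0 and H1FX, the 3 core histone genes and the 3 other genes most like the H1 genes over cells, the 3 least like, the gene outside the histones most like each member, and the ends of each list. Alternatives were other library factors, filters, prior counts, reads in place of barcodes, thinning, squared deviations, removal of a trend on cell number, a replicate block and leaving out each library.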

Additional observations from a re-analysis of the deposited data

Results flagged for a closer look

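HIST1H1A in aliquot 6, at 15.8 CPM, and HIST1H1B in aliquot 7, at 5.86 CPM, stood apart from the other 9 aliquots by Dixon's test. They rest on 3 barcodes and 1 barcode. Of 10 quantities tested over the aliquots these 2 were the ones that stood apart. Chance gives about 1 in 20 groups for continuous values, a rate that does not hold here: HIST1H1B was at 0 in the other 9 aliquots and HIST1H1A at 0 in 7 of 10, so a single library with a few barcodes stands apart by construction. The levels and shares of HIST1H1C, HIST1H1D and HIST1H1E, the H1 sum and its ratio to the core histone genes held no such aliquot.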

How the results depend on the processing

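The number of genes with a larger spread in cells by limma's deviation test was 0 after adjustment in 10 of 11 other settings and in every repeat without 1 library, and 2 without a filter on low counts (367 at an unadjusted p under 0.05 in the reported fit). The number called by the dispersion test was 23, against 8 without a filter, 47 with reads in place of barcodes and 14 after thinning, and 19 to 25 without 1 cell and 6 to 27 without 1 aliquot. It fell to between 6 and 14 without aliquot 1, 4, 5, 6, 7, 8, 9 or 10. The cause was not tested.

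For single genes the dispersion test gave HIST1H1D an adjusted p of 0.0741 without a filter and 0.0606 after thinning, and HIST1H1E 0.0928 without a filter. Without 1 aliquot it was 0.015 to 0.0815 for HIST1H1D, 0.0318 to 0.0815 for HIST1H1E and 0.00868 to 0.0165 for HIST1H1C. The cause was not tested. By limma no setting brought a member past the threshold (adjusted p 0.162 to 0.799). The mean pairwise Spearman correlation of the 3 genes over cells was 0.885 and stayed between 0.857 and 0.912. The log2 ratio of the summed level of cells over aliquots, -0.57, stayed between -0.64 and -0.54.

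Same-numbered cells and aliquots share only a number. Their deviations had correlations of -0.0434 to 0.046, and 1 of 10 aliquots was closest to its own number. With the replicate block over cells 1 to 10, 0 genes were called, and the adjusted p was 0.444 for HIST1H1C, 0.799 for HIST1H1D and 0.788 for HIST1H1E.

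HIST1H1A and HIST1H1B had so few barcodes that their levels are known only within wide counting intervals. The lowest HIST1H1D level rests on 9 barcodes. The dispersion of 0.001 for HIST1H1C in aliquots is the lower end of the fit. With 10 aliquots, the scatter of the method is known less well than that of cells.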

Other observations

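Reads per barcode differed between the H1 genes. HIST1H1E had 4.01 exonic reads per barcode over the 38 cells and 3.93 over the 10 aliquots, HIST1H1C 3.28 and 3.81, and HIST1H1D 2.90 and 2.93, where a library had on average 3.23 ± 0.565 (SD, n = 38) and 2.90 ± 0.221 (SD, n = 10). In the 3 cells with the lowest HIST1H1D level the values were lower, with 10 reads on 9 barcodes in cell 33, 15 on 12 in cell 14 and 18 on 15 in cell 30. Cell 5, the highest, had 850 on 189. Other cells with few HIST1H1D barcodes differed among themselves. Cells 17 and 2 had 10 reads on 9 barcodes and 17 on 15, and cells 15, 29 and 28 had 19 on 9, 36 on 13 and 39 on 14. All of these cells were chosen after their values were seen, and the part of reads per barcode in these levels was not tested.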
